A study of Homo sapiens with 17 samples.

Results

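The 57 genes described here are interferon-stimulated and antiviral genes. They were taken from a list of symbols and found by Ensembl identifier in the gene count files of 2 established human lymphoma lines, Karpas-422 and WSU-DLCL2, both derived from diffuse large B cell lymphoma. All 57 were among the 63677 genes of each file. The rule is a list of names with no threshold on a value, but the list was drawn up with earlier results of these data known. The study concerned histone acetylation and chromatin conformation at oncogenic loci. The groups are, with 3 libraries each, Karpas-422 treated with A-485 for 48 h and Karpas-422 untreated, WSU-DLCL2 treated with A-485 for 48 h, and WSU-DLCL2 clones 1, 2 and 3 labelled BCL11A knockout, set against untreated WSU-DLCL2. A-485 is a small-molecule inhibitor of the histone acetyltransferases p300 and CBP, encoded by EP300 and CREBBP. The deposited tables' names call the untreated libraries DMSO, the solvent control. BCL11A is a transcription factor with zinc fingers that B cell development requires. Each clone is a line of its own, and no unedited clone is among the libraries used here.

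Interferon-stimulated genes are switched on when a cell senses viral or misplaced nucleic acid or meets interferon itself. Type I and type III interferons act through receptors that carry the kinases JAK1 and TYK2, which phosphorylate STAT2 among others. STAT2 joins IRF9 in a complex that binds the interferon-stimulated response element (ISRE) of target promoters, while type II interferon acts through the gamma-activated site (GAS). The products include RNA sensors, enzymes that act on double-stranded RNA, the ubiquitin-like protein ISG15 and its conjugation enzymes, and proteins that block viral entry, translation or replication.

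The libraries were of 2 kinds. The 9 libraries of Karpas-422 and of WSU-DLCL2 with A-485 held 6689320 to 8897051 counts in genes. The 6 libraries of the clones and of untreated WSU-DLCL2 held 21233752 to 37286727. Reads that aligned to more than 1 place formed 43.0% to 55.5% of a shallow library, against 7.73% to 9.24% of a deep one. Spearman correlations across genes were 0.526 to 0.661 between libraries of different kind. ACTB RNA was at 3.20 to 31.9 CPM (counts-per-million of the reads in genes) in the shallow libraries, against 3432 to 9994 CPM in the deep ones. Values are therefore set side by side within a kind alone, and WSU-DLCL2 with A-485 is not compared with untreated WSU-DLCL2. Within groups the correlations were 0.980 or higher, except that untreated WSU-DLCL2 replicate 3 stood at 0.949 to its 2 partners. For this replicate the treatment entry says A-485 while the title gives the untreated line, so the clones were compared with and without it. No label says that libraries of 1 group came from separate cultures, so p-values may measure technical spread only. BCL11A, the gene targeted in the clones, had 58.8, 69.6 and 51.9 CPM in clones 1 to 3, against 46.8, 45.7 and 73.5 CPM in untreated WSU-DLCL2. Its RNA was not lower in the clones, which does not check the label of an edit that leaves the RNA in place.

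The ISRE core was looked for in the promoters of the list, which RefSeq's table for GRCh38.p14 gave for 46 of the 57 genes. The window was the 250 bases before each gene's start, and both strands were searched. The ISRE core was spelled GAAA, any 2 bases, GAAA, and the GAS core TTC, any 3 bases, GAA. The ISRE core was present in 24 of the 46 promoters (52.2%) and in 3.02% of all 35116 promoters of the table. The GAS core was present in 9 of the 46 (19.6%) and in 6.57% of all. These shares describe the list, which holds classical interferon targets, and a match is not a site shown to be bound. The 8 stretches printed here belong to the genes with an ISRE core that had the largest rises with A-485 in Karpas-422, so they were chosen by that response. Each reads 5′ to 3′ on the gene's own strand, with the ISRE core or its reverse complement in capitals.
IFI44, chr1:78649751-78649788, plus strand: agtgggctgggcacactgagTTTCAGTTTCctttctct
IFI44L, chr1:78620355-78620404, plus strand: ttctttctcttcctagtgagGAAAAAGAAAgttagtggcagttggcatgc
DDX60L, chr4:168480513-168480562, minus strand: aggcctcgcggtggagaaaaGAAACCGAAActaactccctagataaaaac
IFI27, chr14:94110621-94110670, plus strand: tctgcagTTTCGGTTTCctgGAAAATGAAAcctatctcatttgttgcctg
PARP12, chr7:140062952-140062981, minus strand: tttcgccggcccggggccgcTTTCGGTTTC
IFIT1, chr10:89392500-89392549, plus strand: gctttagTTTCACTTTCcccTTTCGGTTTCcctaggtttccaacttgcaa
IFIH1, chr2:162318685-162318725, minus strand: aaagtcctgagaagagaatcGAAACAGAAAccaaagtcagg
PLSCR1, chr3:146544657-146544706, minus strand: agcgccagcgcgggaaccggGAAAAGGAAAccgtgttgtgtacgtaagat
Each stretch holds the match nearest to the gene's start. That match began 10 bases before the start of PARP12, 18 before that of IFI44 and 21 before that of IFIH1. IFIT1 and IFI27 show 2 matches each in the printed stretch, at 116 and 103 bases before the start of IFIT1 and at 108 and 95 bases before that of IFI27. Matches outside the printed stretch lay at 159 and 153 bases before the start of IFIH1, 164 before that of IFI44L and 80 before that of DDX60L. Some of the strongest responders described next, MX1, RSAD2 and XAF1, had no match in this window, which says only that these letters are not there.

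The first question was what A-485 did to these genes in Karpas-422. Most of them rose. Of the 57 genes, 50 had enough counts to be tested, 43 of these were called higher with A-485 and 5 lower, at an adjusted p under 0.05 in edgeR's quasi-likelihood test across 11846 genes. Over all genes tested, 37.6% were called higher and 33.7% lower, so a call alone is common in this comparison. A rise of at least 2-fold was called for 36 of the 50 genes and for 22.7% of all genes tested. The median log2 fold change was 1.53 over the 50 genes (quartiles 0.63 and 2.50), against 0.08 over all genes (quartiles -0.55 and 0.90). On CPM from library totals, 47 of the 50 genes were higher in every A-485 library than in any untreated one, as were 56.2% of all genes, and 1 was lower in every one (20.5% of all genes). The 3 A-485 libraries had 50 of the 57 genes at 1 CPM or more each, against 44, 45 and 45 in the untreated libraries. These are bulk RNA data, in which more responding cells and more RNA per cell cannot be told apart.

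Fold changes here use TMM scaling, and CPM are given relative to library totals. The ratio of CPM is larger than the fitted fold change by 0.41 on the log2 scale (1.33-fold), because the median gene shifts by that much between the scalings. With library totals alone the median over the 50 genes was 1.94, against 0.49 over all genes, 46 of the 50 were called higher and 1 lower. The 43 genes called higher were so in each of the 12 settings run. Of the 5 called lower, only UBE2L6 was.

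**Figure D1:**
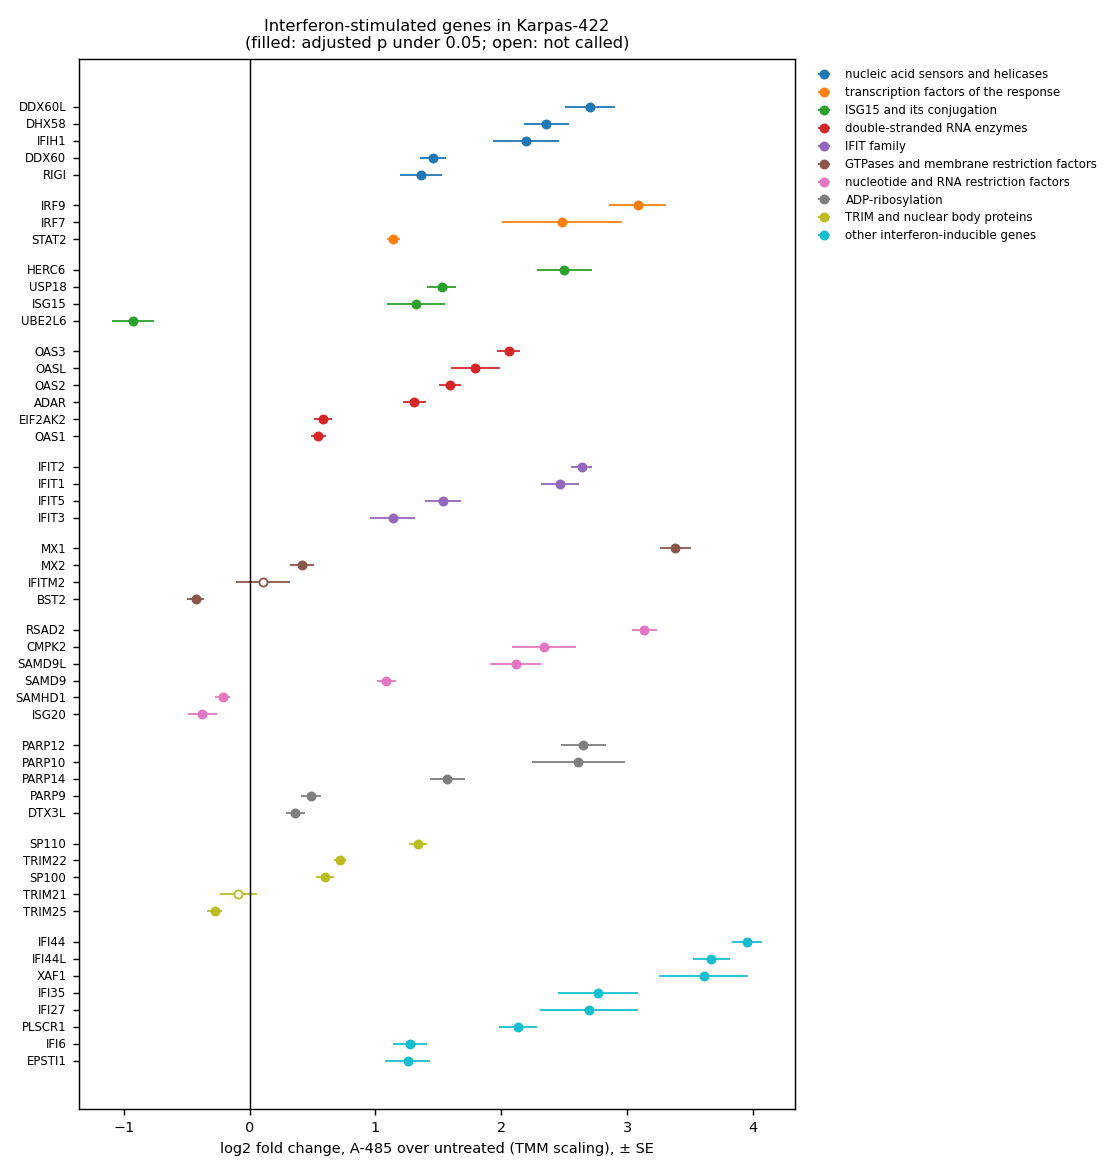
Log2 fold changes of the 50 tested genes in Karpas-422, A-485 over untreated, with standard errors, grouped by role and coloured by group. Filled points passed an adjusted p of 0.05. IFI44 lies farthest right at 3.95 and UBE2L6 farthest left at -0.93, and both open points, IFITM2 and TRIM21, lie near 0.

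**Figure D2:**
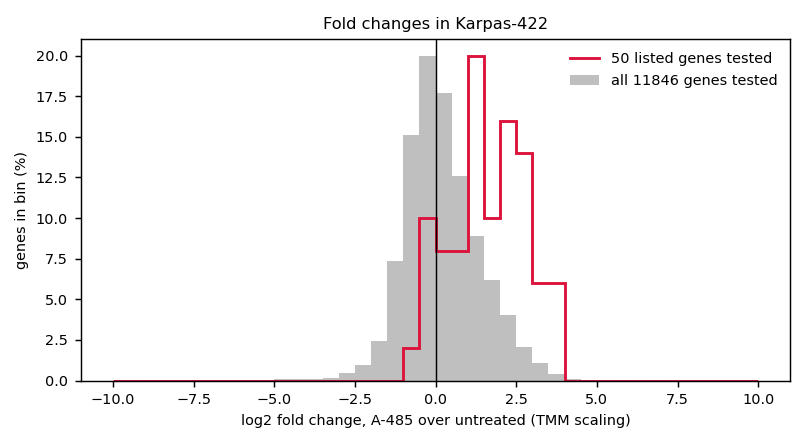
Share of genes in each bin of log2 fold change (width 0.5) in Karpas-422, A-485 over untreated, in grey for all 11846 genes tested and as a red line for the 50 listed genes tested. The red line lies mostly to the right of the grey bars, with 36 of the 50 genes at 1 or more.

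All 5 tested sensors and helicases rose, with a median log2 fold change of 2.20. IFIH1, the sensor MDA5 of long double-stranded RNA, had 7.06, 6.52 and 5.70 CPM with A-485, against 0.855, 1.15 and 1.15 CPM untreated (log2 fold change 2.20 ± 0.26 SE, adjusted p = 3.74e-06). DHX58, the regulatory member LGP2 of the same family, had 25.7, 28.998 and 23.3 CPM with A-485, against 5.13, 2.94 and 3.31 CPM untreated (log2 fold change 2.36 ± 0.18 SE, adjusted p = 4.34e-08). RIGI, the sensor of viral RNA ends, had 15.4, 13.9 and 12.6 CPM with A-485, against 4.52, 3.71 and 4.03 CPM untreated (log2 fold change 1.36 ± 0.17 SE, adjusted p = 5.28e-06). The A-485 libraries lay above every untreated library for each of these 3 genes, as they did for 56.2% of all genes tested. DDX60L, a helicase whose promoter is printed above, had 22.7, 26.0 and 21.5 CPM with A-485, against 3.18, 1.66 and 3.31 CPM untreated (log2 fold change 2.71 ± 0.20 SE, adjusted p = 2.82e-08). Its paralog DDX60 rose by 1.46 ± 0.10 on the log2 scale, and reads shared by the pair may be split or lost. ZBP1, a sensor of Z-form nucleic acid, had too few counts to be tested, with 7 over the 3 A-485 libraries and 0 over the untreated ones. With 3 counts as the floor of the untreated group this is 2.12-fold higher, a value that leaves out the counting error of the 7. IFI16, a DNA-binding sensor, had 0 counts in all Karpas-422 libraries, which allows up to 0.119 CPM with A-485 and 0.131 CPM untreated. The shallow kind of library also held little ACTB, so 0 counts there need not mean that the RNA was absent. Such intervals and floors cover counting error only, and a floor covers only that of the group at 0.

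The transcription factors of the response rose together, 3 of 3. IRF9, the DNA-binding subunit of the complex that occupies the ISRE, had 73.3, 65.3 and 68.5 CPM with A-485, against 9.65, 5.25 and 3.17 CPM untreated (log2 fold change 3.08 ± 0.22 SE, adjusted p = 9.81e-07). STAT2, its partner, had 297, 275 and 273 CPM with A-485, against 99.2, 94.0 and 96.0 CPM untreated (log2 fold change 1.14 ± 0.05 SE, adjusted p = 3e-10). The 3 A-485 libraries were high for both, with no overlap, which held for 56.2% of all genes tested. IRF7, the factor that amplifies type I interferon transcription, was counted at a low level, with 3.59, 1.80 and 2.68 CPM with A-485, against 0.366, 0.128 and 0.576 CPM untreated (log2 fold change 2.48 ± 0.48 SE, adjusted p = 0.000354).

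Among ISG15 and its conjugation enzymes, 3 of the 4 tested genes rose and 1 fell. ISG15 itself had 285, 205 and 214 CPM with A-485, against 69.7, 52.9 and 90.5 CPM untreated (log2 fold change 1.32 ± 0.23 SE, adjusted p = 0.00334). Its untreated values varied, but none reached the lowest A-485 value. USP18, the protease that removes ISG15 and dampens receptor signalling, had 74.6, 61.8 and 60.3 CPM with A-485, against 17.7, 14.6 and 19.3 CPM untreated (log2 fold change 1.53 ± 0.12 SE, adjusted p = 4.54e-08). HERC6, a HECT-type ligase, had 10.4, 10.9 and 9.31 CPM with A-485, against 1.34, 1.54 and 1.15 CPM untreated (log2 fold change 2.50 ± 0.22 SE, adjusted p = 1.83e-07). UBE2L6, the conjugating enzyme for ISG15, went the other way and had 5.65, 7.31 and 6.87 CPM with A-485, against 9.77, 8.32 and 10.6 CPM untreated (log2 fold change -0.93 ± 0.17 SE, adjusted p = 0.000204). Its A-485 libraries lay below all untreated ones on library totals too, as for 20.5% of all genes tested. HERC5, the human ligase for ISG15, had 0 counts in all 15 libraries.

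All 6 enzymes of the double-stranded RNA response rose, by 0.55 to 2.06 on the log2 scale. The oligoadenylate synthetases make the second messenger that activates RNase L. OAS3 had 608, 531 and 521 CPM with A-485, against 89.0, 105 and 106 CPM untreated (log2 fold change 2.06 ± 0.09 SE, adjusted p = 4.82e-09). OAS2 had 132, 131 and 117 CPM with A-485, against 29.4, 33.5 and 31.9 CPM untreated (log2 fold change 1.59 ± 0.09 SE, adjusted p = 1.21e-09). OAS1 changed less than these, with 211, 193 and 190.4 CPM with A-485, against 100.3, 102 and 105 CPM untreated (log2 fold change 0.55 ± 0.06 SE, adjusted p = 2.76e-06). The related protein OASL, which does not make the messenger in human cells, had 24.1, 19.7 and 17.8 CPM with A-485, against 3.54, 5.50 and 4.32 CPM untreated (log2 fold change 1.79 ± 0.19 SE, adjusted p = 1.42e-06). EIF2AK2, the kinase PKR that halts translation, had 1082, 1144 and 1112 CPM with A-485, against 511, 585 and 578 CPM untreated (log2 fold change 0.59 ± 0.07 SE, adjusted p = 7.23e-06). ADAR, which edits adenosine in double-stranded RNA, had 77.9, 67.7 and 67.9 CPM with A-485, against 23.1, 21.1 and 20.7 CPM untreated (log2 fold change 1.31 ± 0.09 SE, adjusted p = 1.56e-08). No untreated library reached an A-485 library for any of the 6 genes, as for 56.2% of all genes tested.

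The 4 IFIT genes, whose proteins bind foreign RNA and block its translation, all rose. IFIT2 had 203, 195 and 178 CPM with A-485, against 22.2, 24.8 and 22.7 CPM untreated (log2 fold change 2.64 ± 0.08 SE, adjusted p = 5.42e-12). IFIT1, with the pair of ISRE cores printed above, had 42.0, 46.1 and 38.5 CPM with A-485, against 4.76, 6.91 and 5.61 CPM untreated (log2 fold change 2.47 ± 0.15 SE, adjusted p = 4.14e-09). IFIT5 had 29.4, 26.2 and 24.1 CPM with A-485, against 7.08, 5.89 and 7.77 CPM untreated (log2 fold change 1.54 ± 0.14 SE, adjusted p = 3.73e-07). IFIT3 rose by 1.14 ± 0.18 and had the smallest change of the family. The A-485 libraries lay above all untreated ones for each of these genes, as for 56.2% of all genes tested.

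GTPases and membrane restriction factors were mixed. MX1, a dynamin-like GTPase against RNA viruses, had 83.5, 75.8 and 79.2 CPM with A-485, against 6.60, 6.15 and 4.32 CPM untreated (log2 fold change 3.38 ± 0.12 SE, adjusted p = 2.25e-11). Its relative MX2 rose less, with 73.4, 72.3 and 64.7 CPM with A-485, against 35.9, 39.8 and 43.3 CPM untreated (log2 fold change 0.42 ± 0.10 SE, adjusted p = 0.00151). BST2, the tether that holds budding virions, had 216, 196 and 208 CPM with A-485, against 214, 189 and 228 CPM untreated, so that the groups overlapped on library totals. BST2 was called lower with TMM scaling (log2 fold change -0.43 ± 0.07 SE, adjusted p = 5.37e-05) and was at -0.02 and not called with library totals alone. IFITM2, which blocks viral entry, was at 0.11 ± 0.21 and not called (adjusted p = 0.667), and with library totals alone it was called higher at 0.51. GBP1, a guanylate-binding GTPase, had 12 counts with A-485 and 2 untreated, a CPM ratio of 5.45 with an exact 95% counting interval of 1.21 to 50.1. IFITM1 had 5 and 4 counts and IFITM3 had 3 and 1, which is at the floor. The IFITM genes are near-identical in part, so their reads are uncertain.

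Of the 6 restriction factors that act on nucleotides or RNA, 4 rose and 2 were called lower. RSAD2, the enzyme viperin that makes a chain-terminating nucleotide, had 185, 168 and 149.6 CPM with A-485, against 13.3, 14.9 and 14.96 CPM untreated (log2 fold change 3.14 ± 0.10 SE, adjusted p = 9e-12). CMPK2, the nucleotide kinase encoded next to it, had 11.3, 8.09 and 9.08 CPM with A-485, against 1.34, 1.02 and 1.87 CPM untreated (log2 fold change 2.34 ± 0.25 SE, adjusted p = 1.63e-06). SAMD9L had 15.5, 16.1 and 15.8 CPM with A-485, against 1.95, 3.71 and 2.59 CPM untreated (log2 fold change 2.12 ± 0.20 SE, adjusted p = 4.94e-07). All 3 genes were several-fold higher in every A-485 library, and SAMD9, the neighbour and paralog of SAMD9L, rose by 1.08 ± 0.08. SAMHD1, which degrades deoxynucleotides, had 421.7, 411 and 406 CPM with A-485, against 343, 357 and 383 CPM untreated. Its log2 fold change was -0.21 ± 0.06 with TMM scaling and 0.20 with library totals alone, and it was called in opposite directions (adjusted p = 0.00593 and 0.00199). ISG20, an RNA exonuclease, was at -0.38 ± 0.12 (adjusted p = 0.0108), but at 0.029 with library totals alone, and without A-485 replicate 3 the call was lost (adjusted p = 0.0694).

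The ADP-ribosylation genes rose, 5 of 5. PARP12 had 24.1, 26.0 and 26.1 CPM with A-485, against 4.15, 2.30 and 2.59 CPM untreated (log2 fold change 2.65 ± 0.18 SE, adjusted p = 1.03e-08). PARP10 had 5.005, 3.15 and 3.84 CPM with A-485, against 0.611, 0.512 and 0.288 CPM untreated (log2 fold change 2.61 ± 0.37 SE, adjusted p = 2.24e-05). PARP14 had 53.9, 55.1 and 57.4 CPM with A-485, against 10.7, 14.9 and 16.8 CPM untreated (log2 fold change 1.57 ± 0.14 SE, adjusted p = 3.25e-07). These 3 are mono-ADP-ribosyltransferases, and each was higher in every A-485 library, as were 56.2% of all genes tested. PARP9 and its partner DTX3L, a ubiquitin ligase, form a complex and are transcribed from 1 region. PARP9 rose by 0.49 ± 0.08 and DTX3L by 0.36 ± 0.07, the smallest rises of the group.

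Of the 5 TRIM and nuclear body proteins 3 rose, with a median of 0.60 over all 5. SP110, a nuclear body protein, had 126, 125 and 124 CPM with A-485, against 36.2, 38.7 and 36.5 CPM untreated (log2 fold change 1.34 ± 0.07 SE, adjusted p = 9.6e-10). TRIM22, an antiviral ubiquitin ligase, rose by 0.72 ± 0.05, and SP100, a nuclear body component, by 0.60 ± 0.07. TRIM25, the ligase that acts on RIG-I signalling, had 404, 399 and 388 CPM with A-485, against 347, 372 and 369 CPM untreated. It was called lower at -0.28 ± 0.06 with TMM scaling (adjusted p = 0.000661) and higher at 0.13 with library totals alone (adjusted p = 0.0144). TRIM21, a cytosolic antibody receptor, was at -0.09 ± 0.15 and not called (adjusted p = 0.593), with 0.31 on library totals alone.

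The other interferon-inducible genes had the highest median of the role groups, 2.73, with 8 of 8 tested genes higher. IFI44, an antiviral protein, had 91.6, 103 and 91.7 CPM with A-485, against 5.50, 4.61 and 3.74 CPM untreated (log2 fold change 3.95 ± 0.12 SE, adjusted p = 5.23e-12). IFI44L, its neighbour and paralog, had 43.5, 46.6 and 47.0 CPM with A-485, against 2.44, 2.69 and 3.02 CPM untreated (log2 fold change 3.67 ± 0.14 SE, adjusted p = 4.59e-11). XAF1, which promotes apoptosis, had 6.67, 5.28 and 5.59 CPM with A-485, against 0.244, 0.256 and 0.576 CPM untreated (log2 fold change 3.61 ± 0.35 SE, adjusted p = 5.51e-07). The untreated XAF1 values rest on 8 counts in all. IFI35 rose by 2.77 ± 0.32, IFI27, a mitochondrial protein, by 2.70 ± 0.39, and PLSCR1, a lipid scramblase, by 2.13 ± 0.15. IFI6 rose by 1.28 ± 0.14 and EPSTI1 by 1.25 ± 0.18. LGALS3BP, a secreted glycoprotein, was not tested, with 8 counts with A-485 and 13 untreated.

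**Figure D3:**
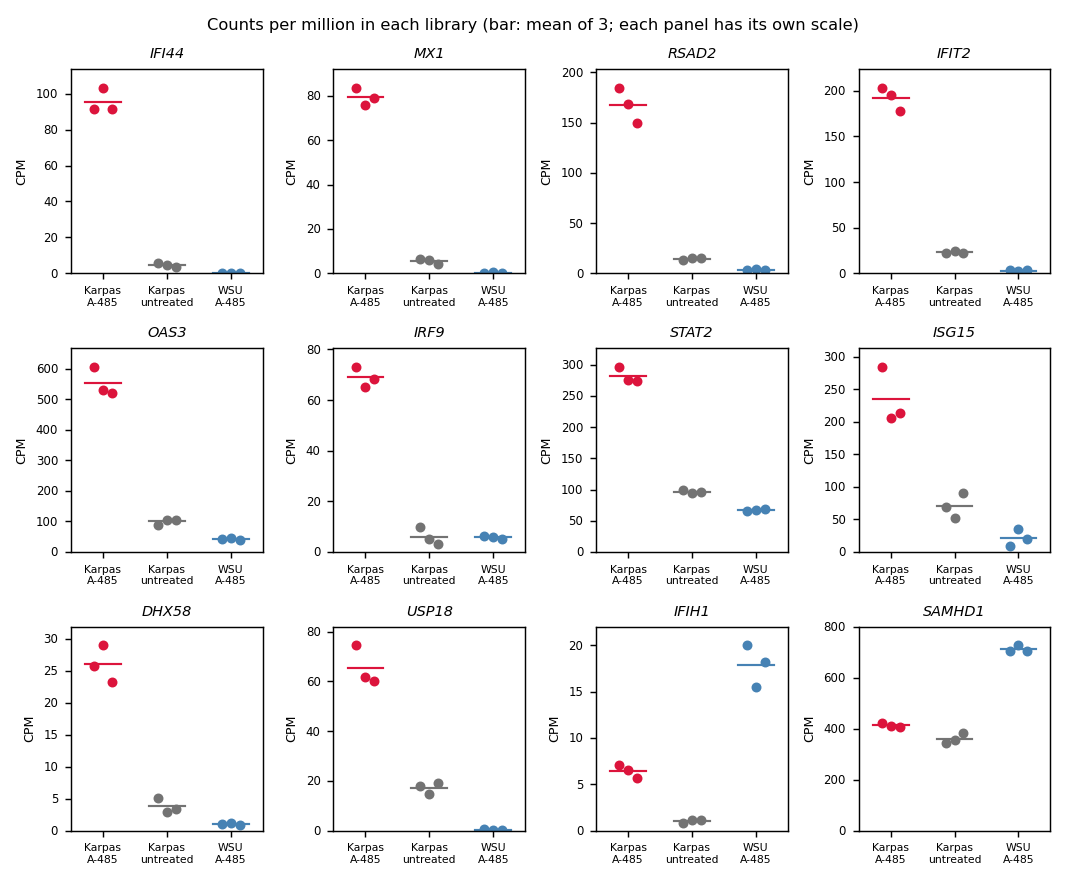
CPM from library totals for 12 of the genes in the shallow libraries, 3 per group: Karpas-422 with A-485, Karpas-422 untreated and WSU-DLCL2 with A-485, with the mean of each group as a line. Each panel starts at 0 and has its own scale. In 10 of the 12 panels the A-485 libraries of Karpas-422 are the highest, while IFIH1 and SAMHD1 are highest in WSU-DLCL2 with A-485.

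The ISRE core was then set beside the changes in Karpas-422. It was present in the promoters of 17 of the 34 genes called higher that had a promoter in the table, and in 2 of the 6 tested genes that were not called higher. The median log2 fold change was 1.57 for the 19 tested genes with a match (range -0.43 to 3.95) and 1.31 for the 21 without (range -0.93 to 3.61). No test was run on this difference.

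Of a further 65 genes of the interferon pathway, 25 had enough counts to be tested, of which 10 were called higher and 8 lower, with a median log2 fold change of -0.04. These shares are near those over all genes tested (37.6% higher and 33.7% lower), so the counts are no result about the pathway. With library totals alone 15 were called higher and 7 lower, with a median of 0.365. None of the 21 interferon genes could be tested, and 19 of them, all 13 interferon alpha genes, IFNG and the IFNL genes included, had 0 counts in all 15 libraries. IFNB1, which encodes interferon beta, had 0.385, 0.562 and 0.466 CPM with A-485, against 0.122, 0.384 and 0.144 CPM untreated, from 12 and 5 counts. The A-485 values lay above the untreated ones, the lowest of them barely, and at this depth a difference was not detectable. Of the receptor chains, IFNAR1 was called higher at 0.17 ± 0.05 and IL10RB at 0.35 ± 0.09, and DESeq2 did not call IFNAR1 (adjusted p = 0.154). IFNGR1 was at -0.21 ± 0.09 and not called, and at 0.20 with library totals alone. In edgeR it was called lower with DESeq2's size factors (adjusted p = 0.0227), without A-485 replicate 1 (0.0428) and without untreated replicate 1 (0.0395).

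All 3 receptor kinases listed were called higher, as were 37.6% of all genes tested. TYK2 had 15.5, 14.2 and 13.9 CPM with A-485, against 4.76, 2.05 and 2.30 CPM untreated (log2 fold change 1.83 ± 0.22 SE, adjusted p = 5.73e-06). JAK2 rose by 0.57 ± 0.12 and JAK1 by 0.38 ± 0.06, both within the quartiles over all genes (-0.55 and 0.90). Among the interferon regulatory factors, IRF3, which drives interferon beta, had 67.0, 61.0 and 63.1 CPM with A-485, against 18.9, 13.4 and 12.2 CPM untreated (log2 fold change 1.69 ± 0.12 SE, adjusted p = 1.96e-08), and IRF1 rose by 1.31 ± 0.33. IRF8, a factor of B and myeloid cells, had 112, 107 and 116 CPM with A-485, against 530.1, 485.2 and 469.8 CPM untreated (log2 fold change -2.55 ± 0.05 SE, adjusted p = 1.75e-13). IRF2, a repressor of the response, was called lower at -0.39 ± 0.07 but was at 0.015 with library totals alone.

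Of the 9 tested sensors and adaptors upstream of interferon, 1 was called higher and 4 lower with TMM scaling, against 5 and 4 with library totals alone. TLR3, the endosomal receptor for double-stranded RNA, had 1.54, 1.46 and 0.931 CPM with A-485, against 7.57, 6.02 and 7.48 CPM untreated (log2 fold change -2.81 ± 0.24 SE, adjusted p = 1.39e-07). TLR7, the receptor for single-stranded RNA, fell by 1.35, TICAM1, the adaptor of TLR3, by 0.84, and TRAF3, a ubiquitin ligase downstream of the sensors, by 0.67 on the log2 scale. MYD88, the adaptor of most Toll-like receptors, had 9.11, 9.33 and 9.66 CPM with A-485, against 1.22, 1.15 and 0.719 CPM untreated (log2 fold change 2.75 ± 0.23 SE, adjusted p = 1.43e-07). CGAS, the cytosolic DNA sensor, was at -0.04 ± 0.06 and not called, as were MAVS, TBK1 and TRAF6, but with library totals alone all 4 were called higher, at 0.365 for CGAS, 0.585 for MAVS, 0.526 for TBK1 and 0.342 for TRAF6. STING1 had 0 counts in Karpas-422. IKBKE had 0 in every library of both lines, so its identifier may have taken no reads, and its RNA level cannot be judged. Of the negative regulators, SOCS1, an inhibitor of the JAK kinases, fell by 1.64 and PIAS4, a SUMO ligase, by 0.68, while the phosphatases PTPN2 and PTPN6 rose by 0.72 and 0.66. The call for PTPN6 was lost with DESeq2. The 8 interferon-inducible chemokine and guanylate-binding genes outside the list had at most 6 counts in any Karpas-422 library and were not tested.

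**Figure D4:**
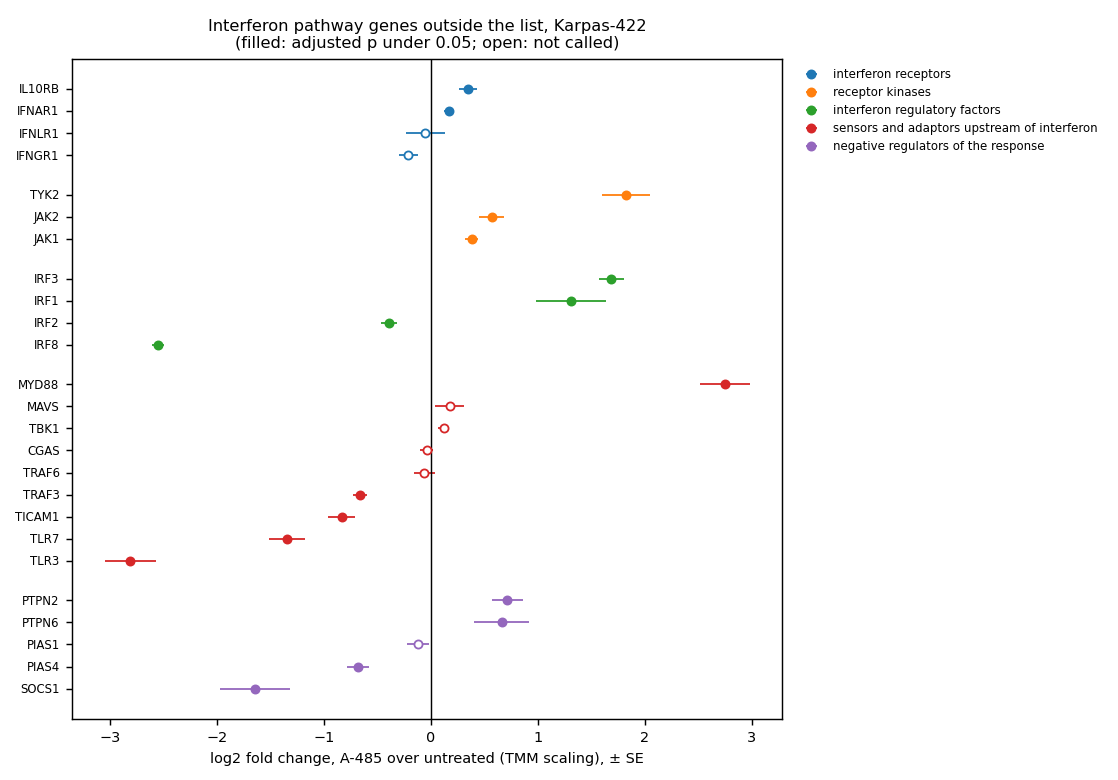
Log2 fold changes of 25 tested interferon pathway genes outside the list in Karpas-422, A-485 over untreated, with standard errors, grouped by role. Filled points passed an adjusted p of 0.05. The 3 receptor kinases all lie right of 0, while the sensors and adaptors spread between -2.81 for TLR3 and 2.75 for MYD88.

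Several features of the libraries moved with treatment in Karpas-422. Reads without a unique alignment were 48.8% to 49.0% with A-485, against 54.5% to 55.5% untreated, and reads outside genes were 8.25% to 8.91%, against 3.61% to 4.54%. Genes detected numbered 19553 to 19787 with A-485, against 17041 to 18121 untreated. ACTB, the cytoskeletal actin that is abundant in most cells, had 17.6, 18.7 and 16.4 CPM with A-485, against 6.23, 3.20 and 4.32 CPM untreated (log2 fold change 1.52 ± 0.19 SE, adjusted p = 5.04e-06). Log2 fold changes differed with the number of annotated transcripts, with medians over all genes of -0.09 for 1 to 3 transcripts, -0.18 for 4 to 6, 0.11 for 7 to 10 and 0.46 for more than 10. The medians of the listed genes in these classes were 1.28 (11 genes), 1.39 (6 genes), 2.12 (15 genes) and 1.74 (18 genes). The 8 B cell identity markers summed to 10040 to 10420 CPM with A-485, against 9673 to 10300 CPM untreated, none at 0. Of 6 T and NK cell markers, all but GNLY were counted, with a sum of 549 to 588 CPM, against 637 to 682 CPM, mostly CD3G. The 6 myeloid markers summed to 43.5 to 48.9 CPM, against 32.2 to 39.9 CPM, with FCN1 at 0. Of 5 markers of plasmacytoid dendritic cells, the main interferon producers of blood, CLEC4C, NRP1 and GZMB were at 0 in all 6 libraries, and the sum was 0.674 to 0.770 CPM, against 0.384 to 0.863 CPM. The 6 epithelial and fibroblast markers summed to 186 to 203 CPM, against 383 to 431 CPM, nearly all of it DCN. EP300 was at 0.10 ± 0.13 (adjusted p = 0.498) and CREBBP at 0.40 ± 0.06 (adjusted p = 5.63e-05). The part of these features in the result was not tested.

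WSU-DLCL2 with A-485 can be set beside Karpas-422 with A-485, whose kind of library it shares. Reads that were not aligned made up 2.51% to 2.86% in Karpas-422 with A-485, against 14.1% to 14.6% in WSU-DLCL2 with A-485, and the part of this difference in the results was not tested. The lines differ in far more than this pathway, and no untreated WSU-DLCL2 library of this kind is used here, so the comparison is of 2 treated lines and not of their responses. Of the 57 genes, 50 were tested, 46 were higher in Karpas-422, 3 were lower and 1 was not called. Over all 12472 genes tested, 38.1% were called higher and 34.3% lower. The median log2 fold change over the 50 genes was 4.12, against 0.07 over all genes. At 1 CPM or more there were 50 of the 57 genes in each Karpas-422 library with A-485, against 30, 28 and 29 in WSU-DLCL2 with A-485. IFI44 totalled 2421 counts in Karpas-422, against 0 in WSU-DLCL2, at least 654-fold higher when 3 counts are taken as the group's floor. SAMD9L totalled 400 and 0 counts, at least 108-fold higher. IFIT3 and XAF1 were likewise at 0 in WSU-DLCL2, with bounds of 76.5-fold and 39.7-fold. IFI16, too low to be tested, went the other way, with 0 counts in Karpas-422 and 18 in WSU-DLCL2. MX2 totalled 1771 counts and 1 count, a CPM ratio of 1436 with an exact 95% counting interval of 257 to 56740.

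All 4 tested genes of the ISG15 group, all 6 enzymes of the double-stranded RNA response and all 4 IFIT genes were higher in Karpas-422 under A-485 than in WSU-DLCL2 under A-485. ISG15 had 285, 205 and 214 CPM in Karpas-422, against 8.67, 34.6 and 20.5 CPM in WSU-DLCL2 (log2 fold change 3.38 ± 0.45 SE, adjusted p = 0.00226). RSAD2 had 185, 168 and 149.6 CPM in Karpas-422, against 2.84, 4.23 and 2.83 CPM in WSU-DLCL2 (log2 fold change 5.58 ± 0.13 SE, adjusted p = 1.48e-16). Both were clearly separate between the lines, and the smallest difference called higher was that of SP100, at 0.52 ± 0.08. The 3 genes that were lower in Karpas-422 are 1 sensor, 1 nucleotide-degrading enzyme and 1 ubiquitin ligase. IFIH1 had 7.06, 6.52 and 5.70 CPM in Karpas-422, against 20.03, 15.5 and 18.2 CPM in WSU-DLCL2 (log2 fold change -1.55 ± 0.15 SE, adjusted p = 5.68e-08). SAMHD1 had 421.7, 411 and 406 CPM, against 706, 728 and 704 CPM (log2 fold change -0.86 ± 0.04 SE, adjusted p = 8.55e-12). TRIM25 had 404, 399 and 388 CPM, against 477, 463 and 493 CPM (log2 fold change -0.34 ± 0.05 SE, adjusted p = 6.51e-06). On library totals the lines did not overlap for 49 of the 50 genes, as for 75.1% of all genes. The exception was IFI27, at 0.05 ± 0.28 and not called (adjusted p = 0.872). The call for BST2 (0.96 ± 0.24) was the only one of the 46 lost under any of the settings run.

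The clones labelled BCL11A knockout were compared with untreated WSU-DLCL2. With all 3 untreated replicates, none of the 16152 genes tested was called by edgeR (0.0%), and 6.92% had an unadjusted p under 0.05. Of the 57 listed genes, 40 were tested, none was called, and 12 had an unadjusted p under 0.05, of which 10 were lower in the clones (4.7% of all genes were lower at that p). The median log2 fold change over the 40 genes was -0.40, against -0.01 over all genes. In 12 of the 40 genes every clone lay below every untreated library, against 8.02% of all genes, and in 3 every clone lay above, against 8.56%. DESeq2 called 315 genes, 7 listed ones among them, all lower in the clones: PARP14, IFIH1, DDX60L, LGALS3BP, UBE2L6, PARP12 and SAMD9L.

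Without untreated replicate 3, edgeR called 2.11% of 16607 genes, 0.422% higher and 1.69% lower. Among the 40 listed genes tested, 3 were called lower and 0 higher, and the median was -0.19, against 0.02 over all genes. Untreated replicates 1 and 2 were far more alike than the clones. Their chi-square per gene, a measure of spread beyond counting error, was 2.66, against 20.3 to 40.9 between clones. The part of this in the calls was not tested. IFIH1 had 0.202, 0.344 and 0.119 CPM in clones 1 to 3, against 5.82, 5.98 and 0.706 CPM in untreated replicates 1 to 3. Its log2 fold change was -4.71 ± 0.35 SE without replicate 3 (adjusted p = 0.00548) and -4.22 ± 0.89 with it (adjusted p = 0.295). The clones were low throughout, and replicate 3 lay between them and replicates 1 and 2. PARP14 had 1.25, 1.23 and 0.895 CPM in the clones, against 7.99, 6.87 and 3.34 CPM untreated (-2.73 ± 0.21 and adjusted p = 0.00549 without replicate 3, -2.44 ± 0.40 and 0.193 with it). LGALS3BP had 0.101, 0.229 and 0.179 CPM in the clones, against 0.764, 0.805 and 0.989 CPM untreated (-2.17 ± 0.37 and adjusted p = 0.0467 without replicate 3, -2.28 ± 0.38 and 0.193 with it). For LGALS3BP, unlike the other two, replicate 3 was the highest library.

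The changes of these 3 genes kept their size with 1 more untreated library left out, but none was then called. Leaving out untreated replicate 1 gave log2 fold changes of -4.76 for IFIH1, -2.64 for PARP14 and -2.24 for LGALS3BP (adjusted p = 0.109, 0.112 and 0.43). Leaving out replicate 2 gave -4.69, -2.83 and -2.13 (adjusted p = 0.11, 0.123 and 0.483). The 1 untreated library that remains is assumed to vary like the clones. The call for LGALS3BP was also lost without clone 3 (adjusted p = 0.133). Without clone 1, 9 of the 40 listed genes were called lower and 1 higher, against 3.58% and 1.46% of all genes tested. Without clone 2 these counts were 8 and 3, against 9.6% and 9.01%, and without clone 3 they were 2 and 0, against 0.469% and 0.0914%. DESeq2, without replicate 3, called IFIH1, PARP14, UBE2L6 and DTX3L lower and SP110 and SAMHD1 higher. Over all 16607 genes tested it called 762 lower and 385 higher, and it did not call LGALS3BP (adjusted p = 0.0518).

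The next genes by p were lower in the clones but missed the threshold in edgeR. UBE2L6 had 1.31, 3.24 and 5.10 CPM in the clones, against 18.1, 18.2 and 7.77 CPM untreated (adjusted p = 0.0863 without replicate 3). DDX60L had 0.236, 0.0859 and 0.239 CPM, against 1.06, 0.724 and 1.32 CPM (adjusted p = 0.0724). DTX3L, the ligase of the PARP9 complex, had 6.47, 9.31 and 11.6 CPM, against 20.6, 20.5 and 11.9 CPM (adjusted p = 0.0768). The clones lay below every untreated library for each of the 3, as for 8.02% of all genes tested. SAMD9L totalled 2 counts in the clones, against 41 in the 3 untreated libraries, 21.7-fold lower with an exact 95% counting interval of 5.64 to 185. The 2 counts came from clone 2, and the interval leaves out the spread between clones. SAMD9L was not called by edgeR with or without replicate 3. The other listed genes tested lay between -1.54 for PARP12 and 0.87 for SAMHD1 without replicate 3. The 4 IFIT genes, MX1, MX2, IFI44, IFI44L, XAF1, DDX60, USP18, OASL, ZBP1, HERC5, GBP1, IFITM1 and IFITM3 were too low in these libraries to be tested. ISG15 had 41.6, 39.9 and 38.0 CPM in the clones, against 28.4, 33.1 and 31.5 CPM untreated, and every clone lay above, but it was not called (adjusted p = 0.614 with replicate 3 and 0.145 without).

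The clones also differed among themselves, for example in the oligoadenylate synthetases. OAS2 had 29.4, 3.75 and 3.67 CPM in clones 1, 2 and 3, against 18.0, 17.7 and 13.3 CPM untreated. OAS3 had 54.4, 21.5 and 22.2 CPM in the clones, against 54.4, 56.9 and 14.7 CPM untreated. In both genes clone 1 was the high one and clones 2 and 3 were alike. PARP9 had 1.15, 3.84 and 6.203 CPM, against 7.52, 7.67 and 3.77 CPM, with clone 1 the lowest, and CGAS had 33.8, 10.03 and 0.149 CPM, against 20.1, 22.1 and 6.12 CPM, with clone 3 the lowest. None of these was called, and their groups overlapped. Untreated replicate 3 was set against the other 5 of the 6 deep libraries. Of the 36 listed genes with at least 100 counts over the 6, it was above the others for 19 and below them for 5. Of the 14710 genes with as many counts, it was above for 38.2% and below for 35.1%, so it stood apart across all genes.

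**Figure D5:**
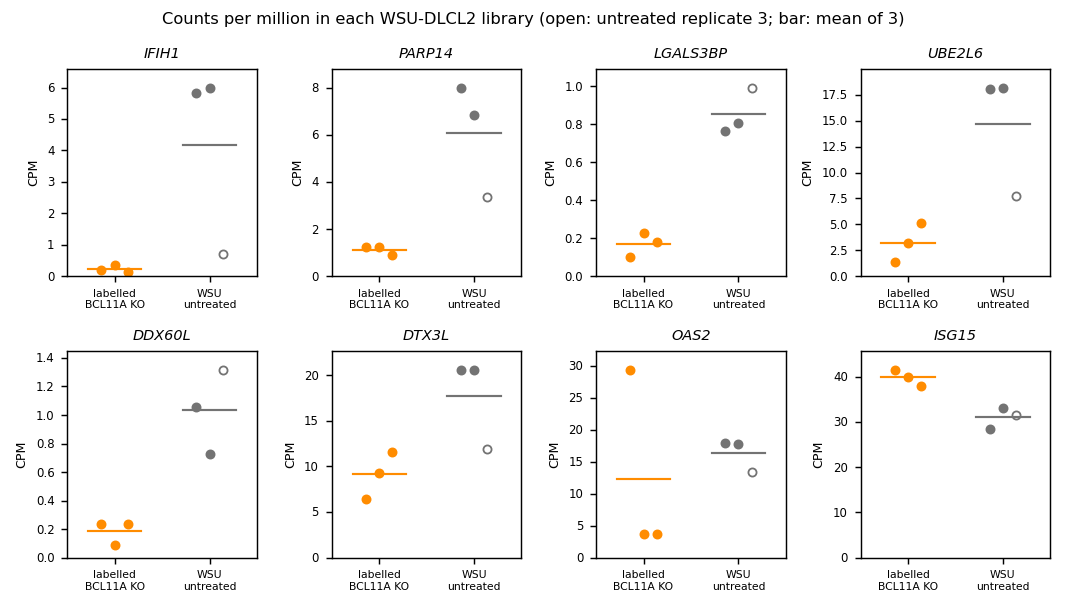
CPM from library totals for 8 genes in WSU-DLCL2, with the 3 clones labelled BCL11A knockout left of the 3 untreated libraries, group means as lines and untreated replicate 3 as an open point. IFIH1 is at 0.119 to 0.344 CPM in the clones, and its open point at 0.706 lies nearer to them than to the other untreated libraries.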

How the data were processed

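The authors deposited read counts per gene, in 1 file per library (15 files). The submitters' processing notes name STAR 2.5.3a, RSEM and the genome GRCh37 (hg19). The annotation, the counting program and the strand setting are not stated there. Of the 17 sample records, 3 are sequencing runs of untreated WSU-DLCL2 replicate 3 that share 1 file. The 5 summary lines of each file, 27.3% to 70.2% of its total, stayed out of library sizes. Symbols came from the identifiers through a gene name table and GENCODE annotation. Overlapping, antisense and paralogous genes may share reads.

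Each comparison was fitted in edgeR 4.0.16 (R 4.3.3) with TMM scaling, filterByExpr, robust quasi-likelihood dispersion, two-sided tests, Benjamini-Hochberg adjustment over all genes kept and a threshold of 0.05, after a check on simulated counts. A standard error here is the log2 fold change over the root of the F statistic. Alternatives were library sizes alone, DESeq2 1.42.0 and its size factors, no filter, a replicate block and each library left out. Genes at 0 counts in a group were set against 3 counts over that group, with the other group's counts taken as observed. Counting intervals are 95% exact Clopper-Pearson. The lowest chi-square per gene between libraries of a group was 1.20, for Karpas-422 with A-485 replicates 2 and 3. This is close to counting error alone, so these may be near-technical replicates. No libraries were merged. The members, the other lists and the rule for named genes (the 3 largest changes per role in Karpas-422 plus fixed genes, the 6 smallest p in the clones, the 3 extremes at each end between the lines) were chosen with earlier results of these data known. Members outside that rule are named to account for the whole list. OAS2, OAS3, PARP9, CGAS and ISG15 in the clones were chosen after their values were seen. A pathway gene was left out and is not reported here.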

Additional observations from a re-analysis of the deposited data

How the results depend on the processing

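In Karpas-422, 602 of 616 values of single genes under an alternative kept their direction and their side of the threshold, 4 lost a call, 4 gained one and 6 changed sign. With library sizes alone the genes called lower were 2292, the listed genes called lower 1 and the median of the listed genes 1.94, and the signs changed for SAMHD1 (0.20), ISG20 (0.029), TRIM21 (0.31), TRIM25 (0.13), IFNGR1 (0.20) and IRF2 (0.015). That scaling moves the median of all genes. Leaving out 1 library gave 4158 to 4713 genes higher, 3743 to 4125 lower, 43 listed genes higher, 4 to 5 lower and a median of 1.46 to 1.61. For the clones with all untreated replicates, DESeq2 called 60 genes higher and 255 lower and 7 listed genes lower. Without a filter on low counts, edgeR called 1 higher and 19 lower, with a median of -0.57. Leaving out 1 library gave 0 to 70 higher, 0 to 281 lower, 0 to 3 listed genes lower and a median of -0.44 to -0.19. For the clones without untreated replicate 3, DESeq2 called 385 genes higher, 762 lower and 2 listed genes higher. Without a filter 222 were higher and 613 lower, with 1 listed gene higher, 6 lower and a median of -0.37. Leaving out 1 more library gave 0 to 1462 higher, 1 to 1558 lower, 0 to 3 listed genes higher, 0 to 9 lower and a median of -0.22 to -0.033. Between the treated lines the median was 4.19 with library sizes alone, 4.05 with DESeq2's size factors and 3.84 without a filter, and 3.92 to 4.12 with 1 library left out, which gave 45 to 46 listed genes higher. The cause of these differences was not tested. The same replicate numbers did not pair the libraries (correlations of deviations 0.015, 0.064 and -0.043 in Karpas-422, and 0.103, 0.031 and 0.226 for the clones). With the replicate block, the clones without replicate 3 had 16 genes higher and 73 lower, and of the listed genes the call for LGALS3BP was lost (adjusted p = 0.192) and one for UBE2L6 gained (0.0447). The block changed no call of a named gene in Karpas-422. With too few counts to be tested were 7 listed genes in Karpas-422 and 17 in the clones, and whether depth or a low RNA level set this was not tested.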
